A study of Mus musculus with 12 samples.

Results

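Unannotated antisense lncRNAs are long noncoding transcripts that the authors assembled from their own reads, that matched no existing annotation, and that they classed as antisense. They were taken here as every transcript of the authors' table of unannotated lncRNAs with the class antisense lncRNA, which gave 538 of 6871 transcripts (7.83%) under 489 gene IDs. The table names them by an LNC number for the transcript and an XLOC number for the gene. The same table also held 4499 intronic and 1834 intergenic lncRNAs.

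An antisense lncRNA is transcribed from the DNA strand opposite another gene and overlaps it. Such RNAs are often made at low levels, many stay near the site where they are transcribed, and some raise or lower the output of the gene they overlap through chromatin, transcription or RNA pairing. In the nucleus many unstable noncoding transcripts are trimmed or destroyed by the RNA exosome. The tables give neither positions nor the overlapped gene, so the sense partners, the sequences and the genomic context of the 538 transcripts were not analysed here, and no function can be attached to a single one. Whether strand was used when reads were counted is not given in the sources used here. Without it, reads of an antisense transcript and of the sense gene it overlaps cannot be told apart, and this limit holds for every level below.

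The libraries were made from mammary gland (inguinal gland 4) of mice of the outbred ICR stock on day 17 of pregnancy, a stage at which the secretory epithelium is close to milk production. The Control group received a control diet, of which the labels say no more. The Met group ate food without methionine from pregnancy day 0 and was injected intraperitoneally with methionine at 35% of the amount in that control diet. Treatment of the Met-Met group was alike, but 25% of the injected methionine was methionyl-methionine, a dipeptide of methionine. Each group had 4 libraries, 12 in all, and the labels do not state whether libraries come from separate mice. The p-values therefore reflect the spread among these libraries alone, and part or all of that spread may be technical. The Met and Met-Met groups differ from Control in diet, methionine supply and injection at once, and these cannot be told apart.

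All levels are scaled FPKM, the authors' fragment numbers normalised to transcript length and library size, divided by 1 factor per library (0.815 to 1.20) taken from coding genes. Read totals are not given. Ratios between low values of the unannotated table put the relative depth of the libraries at 0.884 to 1.16 of Control 1. Each estimate rested on 12 to 28 nearly identical ratios. Only ratios near equal depth were searched, so a wider gap could not have been found. The number of reads behind a single transcript could not be recovered. The defining markers of the labelled tissue were present. The mean of 10 secretory alveolar genes ran from 11.1 to 12.8, on the log2(scaled FPKM + 1) scale used for all marker lists, and the luminal list from 6.56 to 7.08. Some libraries stood apart from others of their own group. The B cell list averaged 2.56 to 3.06 in Control 1, 2 and 3, 1.34 to 1.37 in 3 further libraries (Met 4, Met-Met 1, Met-Met 3), and at most 0.290 in the 6 that remain. The noncoding gene Gm26917 was listed at 9013 to 9305 FPKM as deposited in 3 libraries (Met 3, Met 4, Met-Met 2) and at 72.3 to 99.2 FPKM in the remaining 9. Skeletal muscle markers reached 4.49 in Met 2. In whole tissue, fewer cells of a type and less RNA per cell cannot be told apart.

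Most unannotated antisense lncRNAs were scarce. Their median level over the 12 libraries was 0.128 scaled FPKM, with quartiles of 0.0532 and 0.276 and a highest mean of 4.55. Only 12 averaged at least 1 scaled FPKM. Unannotated intergenic lncRNAs had a median of 0.105 and unannotated intronic lncRNAs of 0.0868, while the 364 antisense lncRNAs of the annotated table had a median of 0.458. The unannotated antisense transcripts were thus close to the other unannotated classes in level and below the annotated antisense class.

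They were also unevenly listed. A value above 0 in all 12 libraries was found for 173 transcripts (32.2%), and 51 (9.48%) were above 0 in a single library. The median transcript was above 0 in 8 libraries. The share above 0 in every library was 16.4% for unannotated intronic, 23.7% for unannotated intergenic and 69.5% for annotated antisense lncRNAs. These shares were not set against each other at matched level, so they describe the deposited tables.

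**Figure D1:**
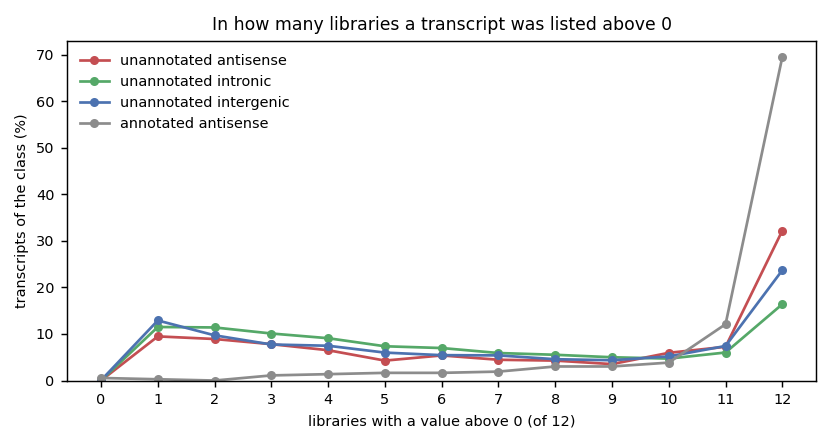
Percentage of the transcripts of each class (y axis) by the number of libraries, of 12, in which the transcript had a value above 0 (x axis), 1 line per class. The unannotated antisense line ends at 32.2% at 12 libraries, above unannotated intronic (16.4%) and unannotated intergenic (23.7%) and below annotated antisense (69.5%).

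The total of the class overlapped between the 3 groups. The summed level of the 538 transcripts was 117 ± 9.26 scaled FPKM in Control, 125 ± 7.74 in Met and 103 ± 12.4 in Met-Met (mean ± SD, n = 4 libraries each). The group ranges ran from 110 to 130 for Control, from 117 to 135 for Met and from 91.7 to 119 for Met-Met. The order of Control and Met rested on the scaling, since the FPKM as deposited summed to 127 in Control, 109 in Met and 101 in Met-Met. The number of transcripts at or above 0.5 scaled FPKM was 55, 62, 54 and 87 in Control 1 to 4. In Met 1 to 4 it was 77, 62, 63 and 88, and in Met-Met 1 to 4 it was 44, 78, 28 and 41. The libraries of 1 group thus differed from each other as much as the groups did, with Control 4, Met 4 and Met-Met 2 at the top of their groups. The order of the Control and Met means of these numbers, 64.5 and 72.5, also turned as deposited (76.2 and 55.8) and with a threshold of 1 scaled FPKM (15 and 14.5).

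A mean of at least 0.5 scaled FPKM was required for testing, and 42 of the 538 transcripts (7.81%) met it. The remaining 496 lay below. The mean was taken over all 12 libraries, so a transcript high in 1 group could pass through that group alone. LNC_003799 did so through Met (Control 0.294, Met 2.42, Met-Met 0.444) and LNC_006235 through Control (1.05, 0.476 and 0.373). The shares called below include such transcripts. The 42 carried 33.2% of the summed mean level of the class. Just inside the limit stood LNC_003369 at a mean of 0.5006 and LNC_000862 at 0.5001, and just outside it LNC_001050 at 0.4933 and LNC_006268 at 0.4894. Of the 42, 40 were above 0 in every library. Control 4 was the highest Control library for 24 of them (57.1%), and Met-Met 2 was the highest Met-Met library for 18 (42.9%). In the Met group the highest library was Met 4 for 14 and Met 1 for 13. For the 168 tested annotated antisense lncRNAs the same libraries led, with Control 4 highest for 80 (47.6%), Met 4 for 56 (33.3%) and Met-Met 2 for 75 (44.6%). They also led for tested unannotated intergenic lncRNAs, at 41.7%, 45.4% and 42.3% in that order. For tested unannotated intronic lncRNAs Control 4 (44.3%), Met 2 (51.4%) and Met-Met 4 (51.9%) led. Control 4 and Met-Met 2 were among the 6 libraries with a B cell mean of at most 0.290, whereas Met 4 was not, and Met 4 and Met-Met 2 held high Gm26917. The part of these features in the order was not tested.

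**Figure D2:**
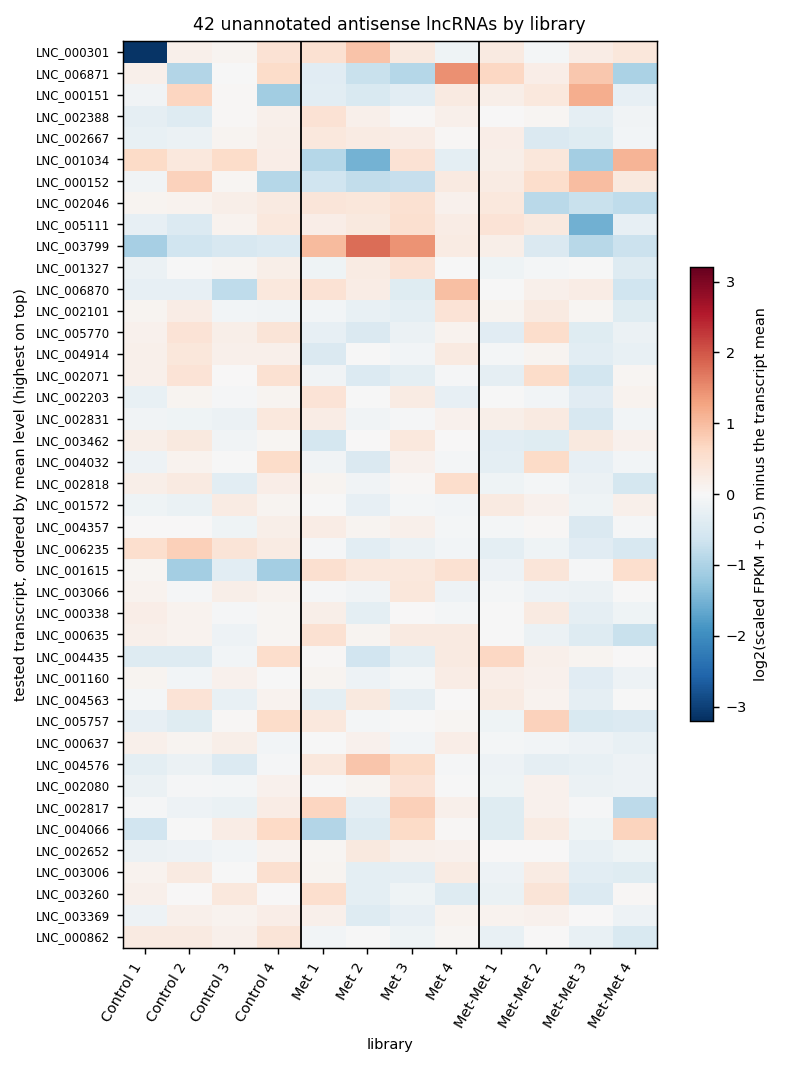
Heat map of the 42 tested unannotated antisense lncRNAs (rows, highest mean on top) in the 12 libraries (columns), coloured by log2(scaled FPKM + 0.5) minus the mean of the transcript, with red above and blue below it. LNC_003799 is red in the Met libraries, LNC_006235 in the Control libraries, and LNC_000301 is dark blue in Control 1, where it was listed at 0.

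The most abundant transcript, LNC_000301 (gene ID XLOC_009036), was listed at 0 in Control 1 and at 4.40, 4.19 and 5.57 scaled FPKM in Control 2, 3 and 4. It measured 5.71, 7.76, 4.93 and 3.50 in Met 1 to 4 and 4.88, 3.74, 4.69 and 5.20 in Met-Met 1 to 4. Outside Control 1 the groups overlapped throughout.

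LNC_006871 (XLOC_176568) had the second highest mean, 1.85, and 1 library far above the rest. It measured 1.77, 0.569, 1.52 and 2.55 in Control 1 to 4, 1.08, 0.738, 0.572 and 5.12 in Met 1 to 4 and 2.74, 1.84, 3.18 and 0.511 in Met-Met 1 to 4. Levels within each group spanned more than the distance between groups. Of the coding genes, Gm21887 followed it most closely over the 12 libraries (Pearson r = 0.976, Spearman rho = 0.965, r = 0.966 without the 2 libraries farthest from the median). As for every such pair below, this partner was picked as the highest of 11804 coding genes, the libraries share group and depth, and no test is attached.

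LNC_002388 (XLOC_064001) and LNC_002667 (XLOC_071724) were the steadiest of the abundant ones. LNC_002388 ran from 1.03 to 1.79 scaled FPKM in Control, from 1.58 to 2.33 in Met and from 1.18 to 1.65 in Met-Met, and the coding gene most like it was Exph5 (r = 0.944, rho = 0.923). LNC_002667 ran from 1.17 to 1.73 in Control, 1.52 to 2.00 in Met and 0.934 to 1.79 in Met-Met. Both overlapped between all groups.

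LNC_001034 (XLOC_028182) and LNC_005111 (XLOC_130128) dropped to near 0 in single libraries. LNC_001034 was at 1.36 to 1.98 scaled FPKM in the Control libraries and at 0.352, 0.0641, 1.71 and 0.801 in Met 1 to 4. In Met-Met 1 to 4 it was at 1.33, 1.58, 0.257 and 2.94, so 3 Met libraries lay below the Control range and none above it, while Met-Met had libraries on both sides. LNC_005111 was at 0.0363 in Met-Met 3 and between 0.654 and 1.70 in the other 11 libraries.

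The comparison of Met with Control asks what methionine restriction by this diet and injection goes along with. In it 3 of the 42 tested transcripts passed an adjusted p of 0.05, LNC_003799 and LNC_001615 higher in Met and LNC_006235 lower. That is 7.14% of the members tested, beside 16 of 388, or 4.12%, of all tested unannotated lncRNAs (3.35% higher and 0.773% lower). An unadjusted p under 0.05 was reached by 8 of 42 (19.0%) beside 20.4% of all tested unannotated lncRNAs, and 6 of 42 (14.3%) had groups that did not overlap, beside 11.1%. The median log2 difference was −0.04 over the 42, with 19 above 0 and 23 below, and 0.12 over all 388. All tests were limma fits on log2(scaled FPKM + 0.5) over the 12 libraries, with Benjamini-Hochberg adjustment over the 388 transcripts. On this scale changes of low transcripts are understated.

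LNC_003799 (XLOC_097910) showed the largest difference of the class. It was at 0.0966, 0.300, 0.366 and 0.412 scaled FPKM in Control 1 to 4. It was at 2.03, 3.82, 2.86 and 0.995 in Met 1 to 4 and at 0.919, 0.409, 0.169 and 0.279 in Met-Met 1 to 4. Every Met library lay above every library of the other groups, with Met 4 only just above Met-Met 1. It rose from 0.294 ± 0.139 in Control to 2.42 ± 1.20 in Met (SD, n = 4), by 1.80 on the log2 scale (SE 0.32, limma adjusted p = 0.0172).

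The call on LNC_003799 was lost without Met 2 (log2 difference 1.57, adjusted p = 0.0518), with the B cell mean as covariate (1.56, 0.175), with the adipocyte mean as covariate (1.41, 0.325) and without the 6 lymphocyte-marked libraries (1.86, 0.198). The differences in these 4 fits ran from 1.41 to 1.86, beside 1.80 in the main fit. Adipocyte means did not overlap between Control and Met, so group and that covariate were hardly told apart. The fit without the lymphocyte-marked libraries holds only Control 4 of the Control group. In the 9 libraries without high Gm26917 the difference was 2.08 (limma adjusted p = 0.0264). Of the Met group that fit holds only Met 1 and Met 2, and Met 2 is the library without which the call was lost. Marker lists of other cell types moved with it. Over the 12 libraries it ran against the cell division list (r = −0.88), the myoepithelial list (r = −0.869) and the fibroblast list (r = −0.825). Cell division averaged 2.71 to 2.87 in Control, 1.25 to 1.86 in Met and 1.94 to 2.98 in Met-Met. Fibroblast and matrix genes averaged 6.28 to 6.72, 5.35 to 5.54 and 5.88 to 6.45 in the same order, and myoepithelial genes 4.75 to 4.99, 4.43 to 4.61 and 4.83 to 4.91. Their part in the result was not tested. The coding gene most like LNC_003799 was Rab3gap1, a subunit of a regulator of Rab GTPases (r = 0.983, rho = 0.909, r = 0.986 without 2 libraries), with group means of 17.9, 27.0 and 18.8 scaled FPKM.

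LNC_006235 (XLOC_158283) went the other way. It was at 1.09, 1.36, 0.948 and 0.801 scaled FPKM in Control 1 to 4, at 0.555, 0.364, 0.459 and 0.527 in Met 1 to 4 and at 0.382, 0.497, 0.346 and 0.268 in Met-Met 1 to 4. Every Control library lay above all 8 others. It fell from 1.05 ± 0.238 in Control to 0.476 ± 0.0852 in Met (SD, n = 4), with a log2 difference of −0.66 (SE 0.14, limma adjusted p = 0.0303). Its Pearson r was 0.724 with the erythrocyte list (rho = 0.615, r = 0.762 without 2 libraries) and 0.756 with the adipocyte list (0.559 and 0.585). It was 0.732 with the T cell list (rho = 0.497, r = 0.42 without 2 libraries), 0.721 with the B cell list (0.371 and 0.437) and −0.739 with the secretory alveolar list (−0.615 and −0.424), so these 3 rested largely on the 2 libraries left out.

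Adipocyte genes averaged 6.16 to 6.39 in Control, 5.06 to 5.40 in Met and 4.22 to 5.41 in Met-Met. The call on LNC_006235 was lost in 12 of 27 other settings. It was lost with the B cell mean as covariate (log2 difference −0.51, adjusted p = 0.279), with the adipocyte mean as covariate (−0.91, 0.249) and without the 6 lymphocyte-marked libraries (−0.44, 0.621), as well as on leaving out Control 1 (0.099), Control 2 (0.103), Control 3 (0.0624), Met 2 (0.0615) or, last, Met 3 (0.0896), where leaving out 1 library gave log2 differences of −0.57 to −0.74. With the difference at −0.66, it was also lost with no filter on level (0.179), with the 8 libraries of the comparison alone (0.0978) and with replicate number as a block (0.106). Over the 9 libraries without high Gm26917 the log2 difference was −0.69 (adjusted p = 0.0768). Control 4, where the B cell mean was 0.0946, held LNC_006235 at 0.801, its lowest Control level, with every Met and Met-Met library below that. The part of lymphocytes in these levels was not tested. The coding gene most like it was Myo9a, an unconventional myosin (r = 0.951, rho = 0.86, r = 0.877 without 2 libraries).

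LNC_001615 (XLOC_042579) was listed at 0.611, 0, 0.336 and 0 scaled FPKM in Control 1 to 4. It was at 1.01, 0.844, 0.844 and 0.976 in Met 1 to 4 and at 0.452, 0.889, 0.532 and 1.02 in Met-Met 1 to 4. All Met libraries lay above all Control libraries, and Met-Met spanned the upper Control and the Met range. The Met against Control difference was 1.03 on the log2 scale (SE 0.26, limma adjusted p = 0.0415), and the call was lost in 22 of 26 other settings. The difference was 1.13 with the B cell covariate (adjusted p = 0.222), 1.08 with the adipocyte covariate (0.378), 1.48 without the lymphocyte-marked libraries (0.175) and 0.87 to 1.26 on leaving out 1 library. A transcript of the same gene ID filled both Control libraries listed at 0, as described with the shared gene IDs.

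**Figure D3:**
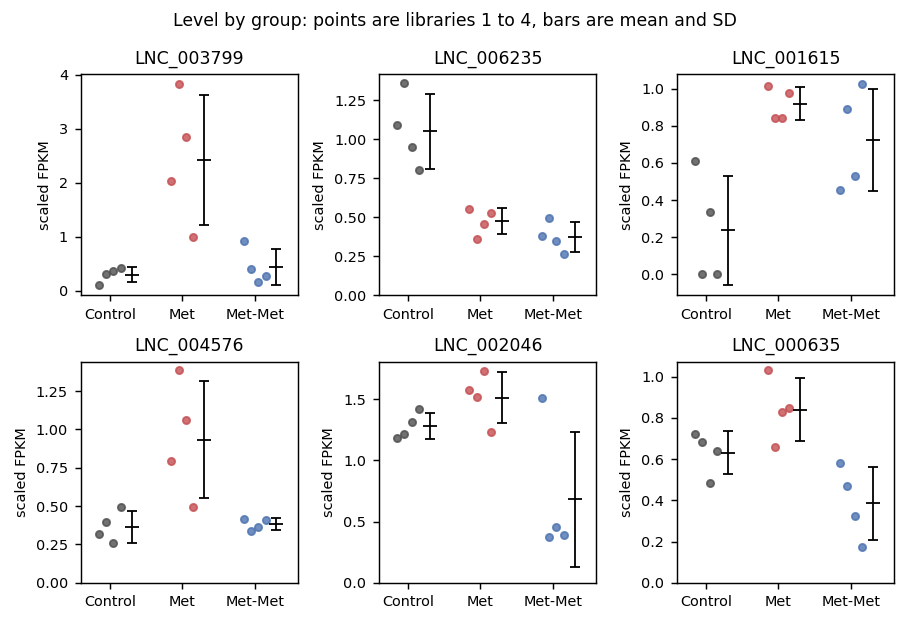
Scaled FPKM (y axis, 1 panel per transcript) of 6 unannotated antisense lncRNAs in each of the 4 Control, 4 Met and 4 Met-Met libraries, with the mean and SD beside the points. LNC_003799 is highest in all 4 Met libraries (0.995 to 3.82), LNC_006235 in all 4 Control libraries (0.801 to 1.36), and LNC_002046 is low in 3 of 4 Met-Met libraries.

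LNC_004576 (XLOC_117938) had the shape of LNC_003799 but missed the threshold. It was at 0.317, 0.395, 0.256 and 0.497 scaled FPKM in Control 1 to 4, at 0.797, 1.39, 1.06 and 0.494 in Met 1 to 4, and at 0.415, 0.339, 0.361 and 0.411 in Met-Met 1 to 4. Met 4 fell within the Control range, just below Control 4. The Met against Control difference was 0.70 (SE 0.19, limma adjusted p = 0.0619). It passed in 3 of 27 other settings, among them library quality weights (0.013) and values above 0 required in all libraries (0.0418). The coding gene most like it was Selenbp1, which encodes a selenium-binding protein that oxidizes methanethiol (r = 0.968, rho = 0.909, r = 0.881 without 2 libraries), with group means of 11.9, 18.6 and 12.4 scaled FPKM.

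Of the 8 transcripts with an unadjusted p under 0.05 in this comparison, the remaining 4 were lower in Met without passing the adjustment, LNC_000862, LNC_001034, LNC_002071 and LNC_005770. LNC_005770 was at 0.894 to 1.21 scaled FPKM in Control and at 0.428 to 0.892 in Met, with a log2 difference of −0.48 (SE 0.21, limma adjusted p = 0.218). Their adjusted p ran from 0.218 to 0.245.

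The comparison of Met-Met with Control covers the same restricted diet with part of the methionine given as dipeptide. One of 42 tested transcripts (2.38%) was called, LNC_006235, and it was lower in Met-Met. Over all tested unannotated lncRNAs 5 of 388 were called, 1.29%, all lower. The unadjusted p was under 0.05 for 6 of 42 beside 9.54% of all, and 3 of 42 had groups that did not overlap beside 8.76% of all. The median log2 difference was −0.09 over the 42 (12 above 0 and 30 below) and −0.01 over all 388.

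LNC_006235 fell to 0.373 ± 0.0951 scaled FPKM in Met-Met (SD, n = 4), with a log2 difference from Control of −0.82 (SE 0.14, limma adjusted p = 0.0124). This comparison shares its Control libraries with the one before. The call was lost in 10 of 27 other settings. Among them were leaving out Control 1 (adjusted p = 0.0667), Control 2 (0.0561) or Met-Met 3 (0.0627), and leaving out any 1 library gave log2 differences of −0.73 to −0.90. It was also lost with no filter (0.22), with the 8 libraries of the comparison (0.0572), with the B cell covariate (−0.70, 0.123), with the adipocyte covariate (−1.19, 0.251) and without the lymphocyte-marked libraries (−0.57, 0.776). In the 9 libraries without high Gm26917 the log2 difference was −0.89 (adjusted p = 0.0509).

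LNC_002046 (XLOC_055269) separated 1 Met-Met library from the other 3. It was at 1.51 scaled FPKM in Met-Met 1 and at 0.373, 0.458 and 0.390 in Met-Met 2, 3 and 4. The Control libraries ran from 1.18 to 1.42 and the Met libraries from 1.23 to 1.73. With all libraries the difference from Control was −0.69 (limma adjusted p = 0.344), and without Met-Met 1 it was −0.97 (adjusted p = 0.00841). The coding gene most like it was Irf2bp2, a transcriptional corepressor (r = 0.921, rho = 0.755, r = 0.904 without 2 libraries).

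LNC_000862 (XLOC_025105) and LNC_004914 (XLOC_125985) had Control libraries that all lay above the Met-Met libraries. LNC_000862 was at 0.594 to 0.810 in Control and 0.200 to 0.498 in Met-Met (log2 difference −0.51, SE 0.15, limma adjusted p = 0.174). LNC_004914 was at 0.950 to 1.16 in Control and 0.523 to 0.866 in Met-Met (−0.36, SE 0.16, adjusted p = 0.523). Neither passed the adjustment.

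The comparison of Met-Met with Met asks what the dipeptide alters under the same diet and injection. In the limma fit none of the 42 transcripts was called, and none of all 388 (0.0%). The unadjusted p was under 0.05 for 6 of 42 (14.3%) beside 17.5% of all, and 4 of 42 (9.52%) had groups that did not overlap beside 6.19% of all. The median log2 difference was −0.14 over the 42 (15 above 0 and 27 below) and −0.15 over all 388.

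LNC_003799 had the largest difference here too. Its Met-Met mean was 0.444 ± 0.332 scaled FPKM (SD, n = 4), and the log2 difference from Met was −1.59 (SE 0.32, limma adjusted p = 0.0909). It passed the threshold without Met 1 (adjusted p = 0.0369), without Met 4 (0.00494), without Met-Met 1 (0.0244), with library quality weights (0.0482), with no filter on level (0.00772) and where values above 0 in all libraries were required (0.0387), but not at a mean of at least 1 (0.0752). Its Met libraries are those of the comparison with Control.

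LNC_000635 (XLOC_019357) was at 1.03, 0.656, 0.8293 and 0.846 scaled FPKM in Met 1 to 4 and at 0.582, 0.468, 0.322 and 0.173 in Met-Met 1 to 4. The groups did not overlap, and the Control libraries, at 0.484 to 0.719, lay across both. The log2 difference was −0.61 (SE 0.16, limma adjusted p = 0.0909). LNC_002046 differed by −0.86 (adjusted p = 0.109), and by −1.14 without Met-Met 1 (adjusted p = 0.00385). LNC_000152 was the one with a higher Met-Met level among those with an unadjusted p under 0.05, by 1.01 (SE 0.34, adjusted p = 0.164).

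Several gene IDs held more than 1 unannotated antisense transcript. Of the 489 gene IDs, 449 held 1, 31 held 2 and 9 held 3, and 45 also held a unannotated transcript of another class. Tools that assemble and quantify transcripts assign reads shared by overlapping transcripts to one or the other by a model. The part of this step in the values was not tested. Among 26 pairs in 20 gene IDs whose members both averaged at least 0.1 scaled FPKM, 14 had a negative Pearson r over the 12 libraries, 3 had an r of −0.7 or below and 2 an r of 0.7 or above. The median r was −0.0835.

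XLOC_036004 held the plainest exchange. LNC_001382 was at 0.782, 0.629, 0.491 and 0 scaled FPKM in Control 1 to 4, at 0.724, 0.423, 0.898 and 0.675 in Met 1 to 4 and at 0.612, 0, 0 and 0.603 in Met-Met 1 to 4. LNC_001381 was at 0.0993 in Control 3, 0.694 in Control 4, 0.645 in Met-Met 2 and 0.504 in Met-Met 3, and at 0 in the other 8. Each of the 3 libraries that lacked the first transcript held the second (r = −0.962). Their sum ran only from 0.423 to 0.898 over all 12 libraries.

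XLOC_042579, the gene ID of LNC_001615, showed an exchange only in part. LNC_001615 and LNC_001617 had an r of −0.867, and of −0.419 without 2 libraries. Met-Met 1 held both, and the sum over the gene ID ran from 0.336 to 1.75. LNC_001617 was listed at 0.560 in Control 2 and 1.14 in Control 4, the libraries in which LNC_001615 was at 0, at 0.291 in Met-Met 1 and at 0 in the other 9. The third transcript, LNC_001616, was at 0.906 in Met 3 alone. The sum of the 3 was 0.611, 0.560, 0.336 and 1.14 in Control 1 to 4 and 1.01, 0.844, 1.75 and 0.976 in Met 1 to 4, so the groups overlapped. The summed difference between Met and Control was 0.52 (SE 0.22, limma adjusted p = 0.209), against 1.03 and a call for LNC_001615 alone.

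XLOC_004983 held a pair that moved together. LNC_000151 and LNC_000152 had an r of 0.906 and means of 1.64 and 1.28 scaled FPKM. Their sum was 2.34, 4.89, 2.73 and 0.769 in Control 1 to 4, 1.61, 1.34, 1.53 and 3.43 in Met 1 to 4 and 3.21, 3.88, 6.66 and 2.68 in Met-Met 1 to 4. The highest library was Met-Met 3 and the lowest Control 4, and Control overlapped both other groups. In XLOC_176568, LNC_006871 and LNC_006870 had an r of 0.613, and both were highest in Met 4, at 5.12 and 2.25.

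**Figure D4:**
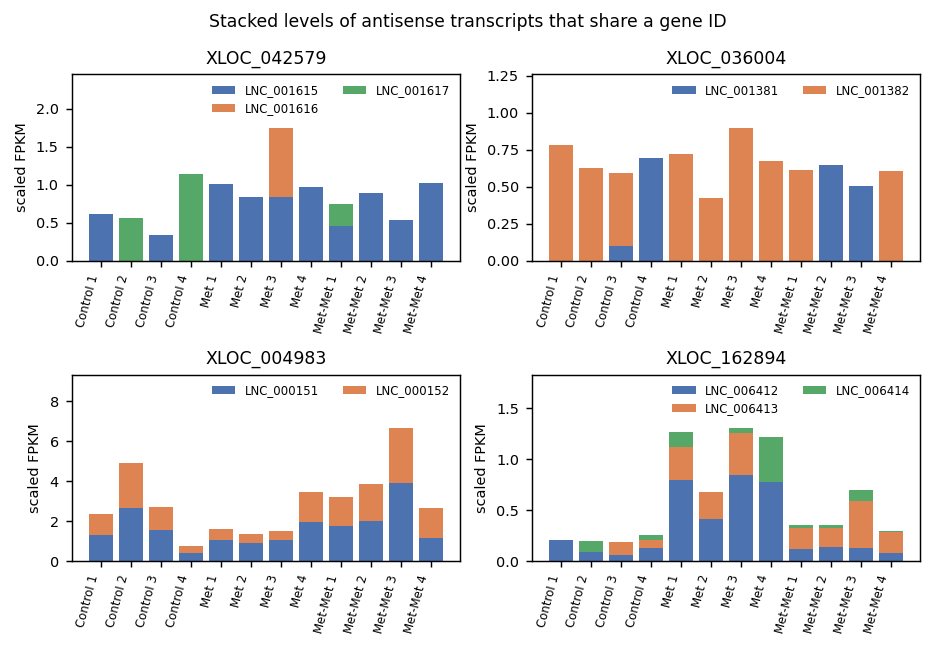
Stacked bars of scaled FPKM (y axis) in the 12 libraries (x axis) for the unannotated antisense transcripts of 4 gene IDs, 1 colour per transcript. In XLOC_036004 and XLOC_042579 one transcript fills libraries in which another is listed at 0, in XLOC_004983 both transcripts are high in the same libraries, and in XLOC_162894 the 4 Met bars stand at 0.676 to 1.31.

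Summing FPKM per gene ID before testing brought in transcripts that alone lay below the limit. Of 406 gene IDs tested, 50 held antisense transcripts, and 6 of these were called in Met against Control beside 7.14% of all 406, 2 in Met-Met against Control beside 1.97%, and 3 in Met-Met against Met beside 2.71%. XLOC_097910, XLOC_158283 and XLOC_117938, the gene IDs of LNC_003799, LNC_006235 and LNC_004576, were among the 6. Each of them holds 1 antisense transcript, so nothing was summed and only the set fitted and adjusted over changed. The other 3 were XLOC_162894, XLOC_006846 and XLOC_130273, described next. They, like LNC_000635 and the transcripts below the limit, were chosen for description after their values were seen. XLOC_162894 and XLOC_006846 averaged at least 0.5 only in Met, and XLOC_130273 only in Control. The fit on sums per gene ID was not repeated with covariates or left-out libraries, so its calls had no such check.

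XLOC_162894, with 3 antisense transcripts, summed to 0.203, 0.196, 0.187 and 0.260 scaled FPKM in Control 1 to 4. It summed to 1.27, 0.676, 1.31 and 1.21 in Met 1 to 4 and to 0.353, 0.356, 0.699 and 0.298 in Met-Met 1 to 4. All Met libraries lay above all Control libraries, while Met-Met 3 lay just above Met 2. It rose in Met against Control by 1.17 (SE 0.18, limma adjusted p = 0.00118 over the gene IDs) and was lower in Met-Met than in Met, with a log2 difference of −0.80 (adjusted p = 0.0285).

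XLOC_006846, also with 3, summed to 0.174, 0.123, 0.527 and 0.625 in Control 1 to 4, to 1.27, 1.72, 0.853 and 1.23 in Met 1 to 4 and to 0.436, 0.360, 0.334 and 0.488 in Met-Met 1 to 4. The Met libraries stood above all 8 others. The log2 difference was 1.06 between Met and Control (SE 0.21, limma adjusted p = 0.00604) and −0.95 between Met-Met and Met (adjusted p = 0.0285).

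XLOC_130273, with LNC_005115 and LNC_005116, was highest in Control, like LNC_006235. It summed to 0.827, 1.07, 0.773 and 1.42 in Control 1 to 4, to 0.330, 0.341, 0.212 and 0.259 in Met 1 to 4 and to 0.451, 0.442, 0.318 and 0.357 in Met-Met 1 to 4. Every Control library was above all 8 others. It fell in Met, with a log2 difference from Control of −0.94 (SE 0.15, limma adjusted p = 0.00221), and in Met-Met, with −0.76 (adjusted p = 0.0234).

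With no limit on level, 6869 unannotated transcripts were tested and 3 of the 538 were called in Met against Control, beside 0.349% of all, and 4 in Met-Met against Met, beside 0.218%. In Met-Met against Control limma called none of the 538, beside 0.0146% of all, while 43 (7.99%) had an unadjusted p under 0.05, beside 5.15% of all. At the same unadjusted p there were 60 (11.2%) in Met against Control beside 7.96% of all, and 52 (9.67%) in Met-Met against Met beside 6.11%. LNC_003799 was in both sets. LNC_005902 (XLOC_150795) and LNC_006412 (XLOC_162894) completed the first, and with LNC_000653 (XLOC_020055) the second. All had Met libraries above both other groups. The fit with no limit on level was likewise not repeated with covariates or left-out libraries.

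LNC_005902 was at 0.0863, 0.148, 0.141 and 0.223 scaled FPKM in Control 1 to 4. It was at 1.05, 0.690, 0.858 and 0.875 in Met 1 to 4 and at 0.347, 0.231, 0.176 and 0.250 in Met-Met 1 to 4. It rose by 1.07 in Met against Control (SE 0.18, limma adjusted p = 0.0042) and the log2 difference of Met-Met from Met was −0.86 (adjusted p = 0.0425).

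LNC_006412 was at 0.203, 0.0877, 0.0590 and 0.130 in Control 1 to 4, at 0.801, 0.411, 0.848 and 0.774 in Met 1 to 4 and at 0.123, 0.140, 0.127 and 0.0811 in Met-Met 1 to 4. Control and Met-Met overlapped, and the Met libraries stood apart. The log2 differences were 0.95 for Met against Control (limma adjusted p = 0.0124) and −0.95 for Met-Met against Met (adjusted p = 0.0214). LNC_000653 was at 0.561, 0.769, 0.537 and 0.272 in Met 1 to 4, at 0.0696 to 0.116 in Control and at 0.0331 to 0.111 in Met-Met, with a log2 difference of −0.86 for Met-Met against Met (adjusted p = 0.0425).

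On the log2(scaled FPKM + 0.1) scale used for transcripts of low level, these 3 and LNC_003799 ran against the myoepithelial list, with r between −0.818 (LNC_005902) and −0.889 (LNC_000653), and against the fibroblast and matrix list, with r between −0.815 (LNC_000653) and −0.906 (LNC_005902). LNC_003799 and LNC_005902 also ran against the cell division list (r = −0.88 and −0.848), and LNC_005902 against the macrophage list (r = −0.818). The part of those cells in the levels was not tested. None of the 4 was among the 3 transcripts that followed or opposed the list of ATF4 targets, genes that amino acid shortage switches on, with an absolute r of 0.8 or more. Below that cut, LNC_003799 had an r of 0.535 with the ATF4 list on the log2(scaled FPKM + 0.5) scale (rho = 0.594, r = 0.644 without 2 libraries). The ATF4 list averaged 2.90 to 3.17 in Control, 4.13 to 5.18 in Met and 3.60 to 4.66 in Met-Met. Its relation to the levels was not tested.

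A further set followed lymphocyte markers over the 12 libraries. The highest means of the B cell list were all in Control libraries, so markers and group were only partly told apart. On the same scale, of the 307 unannotated antisense lncRNAs with a mean of at least 0.1 scaled FPKM, 10 had an r of at least 0.8 with the B cell list and 12 with the T cell list, and none had an r of −0.8 or below with either. The adipocyte list had 3 such followers and 1 in the opposite direction, and the fibroblast list 1 and 6. These are descriptions over 12 libraries that share groups and depth.

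LNC_005526 (XLOC_140915) was at 0.831, 1.298 and 1.61 scaled FPKM in Control 1, 2 and 3 and at 0.124 in Control 4. It was at 0.0968, 0.105, 0.232 and 0.611 in Met 1 to 4 and at 0.220, 0.130, 0.260 and 0.133 in Met-Met 1 to 4. Its highest libraries, Control 1 to 3 and then Met 4, were all among the 6 with lymphocyte markers (r = 0.956, rho = 0.902, r = 0.897 without 2 libraries).

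LNC_001050 (XLOC_028579), just under the limit for testing, was at 1.08, 1.51, 1.40 and 0.223 in Control 1 to 4. It was at 0.130, 0.0747, 0.174 and 0.504 in Met 1 to 4 and at 0.249, 0.190, 0.207 and 0.174 in Met-Met 1 to 4 (r = 0.944 with the B cell list, rho = 0.762, r = 0.866 without 2 libraries). Control 4 lay within the range of the other groups. LNC_001049 (r = 0.959) and LNC_001048 (r = 0.892) behaved alike at lower levels, each highest in Control 2, at 0.860 and 0.719. A mean over the Control group of these transcripts therefore describes 3 libraries and not the fourth, whose B cell genes were near 0, with Cd79a at 0.0369 scaled FPKM against 12.5 to 18.4 in Control 1 to 3.

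**Figure D5:**
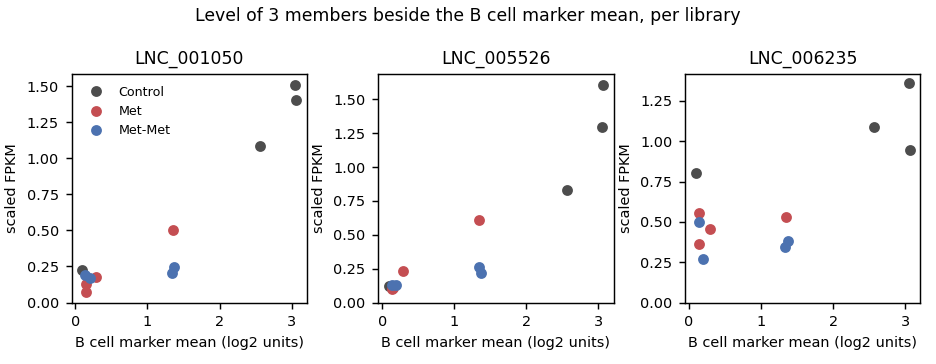
Scaled FPKM (y axis) of LNC_001050, LNC_005526 and LNC_006235 against the mean log2 level of the B cell markers (x axis) in each library, coloured by group. The first and second are high only in the 3 Control libraries with a B cell mean of 2.56 to 3.06. LNC_006235 is at 0.801 in Control 4, its lowest Control library, where that mean is 0.0946.

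Few genes of the machinery that removes unstable noncoding RNA passed the test. The 18 tested genes covered RNA exosome subunits, its nuclear cofactors, the cap-linked factors that recruit it, and the separate exonuclease Xrn2. None was called by limma in Met against Control or in Met-Met against Control, where 28.3% and 20.1% of 11818 coding genes were called. An unadjusted p under 0.05 was reached by 1 and 3 of the 18, beside 40.2% and 35.0% of all. The median log2 difference of the 18 was 0.04 and 0.14, beside 0.01 and −0.00 over all coding genes. In Met-Met against Met 1 was called beside 11.7% of all. The called gene was Srrt, which encodes the cap-associated factor ARS2, at 21.1 ± 1.12 scaled FPKM in Met-Met and 14.7 ± 2.78 in Met (SD, n = 4), a log2 difference of 0.51 (SE 0.11, limma adjusted p = 0.0142). The median over the 18 was 0.06 in that comparison. Exosc5, an exosome core subunit, and Dis3, the catalytic subunit of the nuclear exosome, stood apart in the 3 libraries with high Gm26917. Exosc5 was at 16.8 scaled FPKM in Met 3, 12.8 in Met 4 and 10.5 in Met-Met 2 and at 0.359 to 1.06 in the other 9. Dis3 was at 5.41, 8.31 and 7.29 in those 3 and at 0.801 to 1.85 in the other 9. Their log2 differences in Met against Control were 1.52 (SE 0.85, limma adjusted p = 0.206) and 0.70 (SE 0.52, adjusted p = 0.338). Both were chosen for description after their values were seen.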

How the data were processed

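RNA was extracted with TRIzol, per the labels. The authors deposited FPKM per transcript. The tools listed in the submitters' processing notes are StringTie 1.3.1, HISAT2 2.0.4 and Bowtie2 2.2.8, and the builds are mm9 and GRCm38, with no roles. The rule for calling a transcript unannotated or antisense is not given in the sources used here. One Met-Met title is spelled differently and was read as Met-Met. The divisor of a library was its median ratio to the average library over 11809 coding genes averaging 1 FPKM or more. Unannotated transcripts at a mean of at least 0.5 were fitted with limma 3.58.1 (R 4.3.3) on log2(FPKM + 0.5), with an intensity trend and 3 group means, two-sided, and adjusted within a comparison. The fit was tested on simulated data. Tables and figures used Python 3.11.15, numpy 2.4.6, pandas 2.3.3 and matplotlib 3.10.9.

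Named transcripts are those called with groups that do not overlap, the 10 highest means, the 5 with the largest ratio of the highest to the median library, and gene IDs with 2 or more tested. Others were chosen after their values were seen. Members and lists were chosen with earlier results of these data known. Alternatives covered scaling, pseudocount, filter, unit, covariates, weights and left-out libraries. Replicate numbers were not used to pair libraries in the main fit.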

Additional observations from a re-analysis of the deposited data

Results flagged for a closer look

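In 48 groups of 4 libraries examined for the transcripts described, 4 had a library far from the other 3. Chance gives about 1 in 20 such groups for independent transcripts not chosen by their values. That rate is no guide here. LNC_006871 and LNC_000151 were named in part for a high ratio of the highest to the median library, and LNC_000151 and LNC_000152 share a gene ID. In Met 4, LNC_006871 was at 5.12 scaled FPKM beside 0.572 to 1.08 in the other Met libraries, LNC_000151 at 1.94 beside 0.906 to 1.07, and LNC_000152 at 1.5 beside 0.436 to 0.542. In Met-Met 1, LNC_002046 was at 1.51 beside 0.373 to 0.458. Met 4 held high Gm26917 and a B cell mean of 1.35, and Met-Met 1 a B cell mean of 1.37. Their part in these values was not tested.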

How the results depend on the processing

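Only differences with an unadjusted p under 0.05 in the main limma fit were followed through the alternatives, and none of them turned direction. Whether smaller differences turned was not examined. The order of Control and Met in the summed level and in the number of members did turn, as the values below show. Of the 3 transcripts called in Met against Control, 1 call was left with the 8 libraries of the comparison, with the replicate block and without high Gm26917. With the B cell or the adipocyte covariate 0 were left, and 6 gene IDs were called when summed. At a mean of at least 1, LNC_003799 was called, while LNC_006235 and LNC_001615 lay below that limit and were not tested. The fit without lymphocyte-marked libraries has 1 Control library, whose spread is taken from the rest, so no call is counted for it here. The 1 call in Met-Met against Control, LNC_006235, was not tested at a mean of at least 1. It became 0 with the 8 libraries of the comparison, the replicate block, either covariate, without high Gm26917 and with no filter, and 2 when summed. The 0 calls in Met-Met against Met became 4 with no filter, 1 with values above 0 required in all libraries, 1 with quality weights and 3 when summed, and stayed 0 under the replicate block. Leaving out 1 library gave 0 to 3, 0 to 2 and 0 to 2 calls in the same order. The labels do not say whether same-numbered libraries belong together. Of 12 same-numbered pairs, deviations correlated from −0.37 to 0.172, with 1 above 0.1, which does not settle it. The summed level of the class was 127 in Control and 109 in Met as deposited, and 37.1, 41.2 and 36.2 in Control, Met and Met-Met over members at a mean of at least 0.5. Without 1 library it was 113 to 119, 121 to 127 and 97.1 to 106. Members at 0.5 or above averaged 55.8 in Met as deposited. At a threshold of 1 they averaged 15, 14.5 and 11, above 0 they averaged 346, 333 and 334, and without 1 library 57 to 68, 67.3 to 76 and 37.7 to 54.3. Reads per transcript are unknown, so the counting error of low values cannot be given. The causes were not tested.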
